A study of Mus musculus with 4 samples.

Results

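Macrophages of brown adipose tissue (BAT) were examined through 10 genes, all of which were listed once among the 55387 rows of each library. The members were taken by name and fall into 3 groups, namely 3 general macrophage genes (Adgre1, Csf1r and Cd68), 4 genes of resident macrophages (Mrc1, Cd163, Lyve1 and Folr2) and 3 genes of lipid-associated macrophages (Trem2, Gpnmb and Itgax). RNA sequencing had been performed on BAT of 4 male mice aged 15 weeks on a C57BL/6 background, 2 Sox4f/f mice, which carry the floxed Sox4 allele without Cre and which the labels call WT, and 2 Sox4-MKO littermates, with 1 library per mouse. In Sox4-MKO mice the same floxed allele is combined with Myf5-Cre, which acts in the precursors of brown adipocytes and skeletal muscle, so the deletion is directed at that lineage and not at blood-derived cells. The labels name adipocytes as the cell type, whereas the protocol describes whole tissue.

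Macrophages enter fat as embryonic or blood-derived cells and depend on the receptor CSF1R. Resident macrophages of connective tissue line vessels and nerves and carry scavenger and endocytic receptors such as CD206, CD163, LYVE1 and folate receptor beta. Lipid-associated macrophages take up lipid from dying or enlarged adipocytes, and their program runs through the lipid receptor TREM2 and includes lysosomal and lipid-handling genes. The comparison asks which of these macrophage genes differed between BAT with and without the deletion.

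The resident genes lay higher in BAT labelled Sox4-MKO, and none of the lipid-associated genes was called. All 4 resident genes lay higher in both Sox4-MKO mice than in either Sox4f/f mouse, by 2.36 to 3.06 times in averaged FPKM (fragments normalised to transcript length and library size), and 3 of the 4 were called, that is, had an unadjusted p under 0.05 by limma. Among all tested genes 7.95% were called higher, and 21.7% lay higher in both Sox4-MKO mice without overlap. The general genes also did not overlap, with smaller differences of 1.43 to 1.87 times, and 1 of the 3 was called. Of the lipid-associated genes 0 of 3 were called, and their averaged FPKM in Sox4-MKO was 0.573 to 0.757 times that in Sox4f/f. Of these 3 only Itgax, which entered the test only through its Sox4f/f libraries, lay lower without overlap, as did 29.6% of all tested genes. Of all tested genes, 8.28% were called lower. After adjustment over all tested genes no member was called. In whole tissue, a change in the number of macrophages and a change in the RNA of each macrophage cannot be told apart.

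The call rests on log2(FPKM + 1) and on the p threshold that the study names, and a gene was tested when its mean FPKM exceeded 1 in either genotype. All 10 members passed this limit, Itgax only through the Sox4f/f libraries. The median log2 fold change of the 12877 tested genes was -0.05, and that of the 10 members was 0.79. After rescaling without mitochondrially encoded genes and Ucp1, 36% of all calls were lower, against 51% before. After Benjamini-Hochberg adjustment over all tested genes limma called 0 genes (smallest adjusted p = 0.191), against 2090 at an unadjusted p under 0.05. For a single gene, the smallest p that 2 mice per genotype allow in an exact permutation test (two-sided) is 0.333. Without moderation of the variances across genes, limma called 0 of the 10 members.

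The libraries differ in more than the macrophage genes. Sox4 itself was not called lower under the label and overlapped between the groups, with values of 1.98 and 1.06 FPKM for Sox4f/f, and of 0.981 and 3.06 FPKM for the label Sox4-MKO (log2 fold change 0.20, standard error (SE) 0.43, adjusted p = 0.843 by limma), and all directions given here follow the labels. Brown adipocyte genes were abundant in all 4 libraries, such as Ucp1 with 734 to 1935 FPKM, and 3 of 8 were called lower (Cidea, Ucp1 and Ppargc1a, with log2 fold changes from -1.21 to -0.86), whereas Fabp4 was not (0.07). Skeletal muscle genes stood highest in Sox4-MKO mouse 1. Their summed level over 6 genes was 161 and 599 FPKM in Sox4f/f mice 1 and 2 and 11740 and 2065 FPKM in Sox4-MKO mice 1 and 2. The depth was estimated at 12200000 to 17400000 fragments per library.

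**Figure D1:**
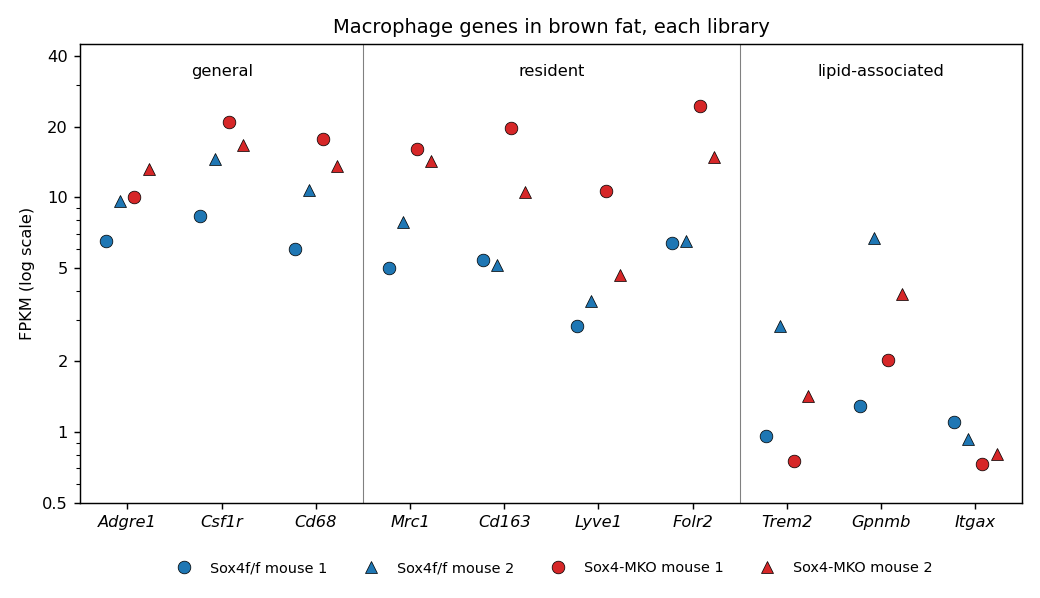
FPKM of the 10 macrophage genes on a log axis, with 1 point per library (blue, Sox4f/f; red, Sox4-MKO; circles, mouse 1; triangles, mouse 2). Red points lie above blue points for the 7 general and resident genes, from 1.43 to 3.06 times in averaged FPKM, whereas they lie among or below the blue points for Trem2, Gpnmb and Itgax.

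Among the resident genes, Folr2 differed most. It encodes folate receptor beta, a marker of perivascular macrophages, and spans 101839988 to 101857194 on chromosome 7 (GRCm38, as for all gene positions given here). Its level was 6.40 and 6.48 FPKM in Sox4f/f BAT, against 24.5 and 14.9 FPKM in BAT labelled Sox4-MKO. Both Sox4f/f mice were nearly equal, and the lower Sox4-MKO mouse still lay far above them. Averaged, this gave 6.44 ± 0.06 FPKM for Sox4f/f and 19.7 ± 6.78 FPKM for Sox4-MKO (SD, n = 2 mice each). Folr2 was called at a log2 fold change of 1.43 (SE 0.26, adjusted p = 0.196 by limma), which was 1.09 without Sox4-MKO mouse 1.

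Cd163 encodes the scavenger receptor for haemoglobin bound to haptoglobin and lies on chromosome 6 from 124304656 to 124330527. It had 5.39 and 5.15 FPKM in Sox4f/f BAT, against 19.8 and 10.6 FPKM in Sox4-MKO. The Sox4-MKO mice differed from each other by more than the Sox4f/f mice, and the groups did not overlap. It was called at a log2 fold change of 1.31 (SE 0.31, adjusted p = 0.214 by limma). The call was lost without Sox4f/f mouse 1 or without Sox4f/f mouse 2, although the log2 fold changes were then 1.33 and 1.28.
Mrc1 encodes the mannose receptor CD206 and lies on chromosome 2 from 14229392 to 14332057. It had 4.98 and 7.84 FPKM in Sox4f/f BAT, against 16.0 and 14.2 FPKM in Sox4-MKO. Both Sox4-MKO mice were close to each other and above both Sox4f/f mice. Its log2 fold change of 1.15 (SE 0.23, adjusted p = 0.207 by limma) stayed between 0.86 and 1.43 when single libraries were left out, and Mrc1 was called in each of those fits.

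Lyve1 encodes a hyaluronan receptor shared by resident macrophages and lymphatic endothelium and lies on chromosome 7 from 110850607 to 110863239. It had 2.82 and 3.62 FPKM in Sox4f/f BAT, against 10.7 and 4.66 FPKM in Sox4-MKO. Sox4-MKO mouse 1 stood apart, and mouse 2 lay only a little above Sox4f/f. The log2 fold change of 0.95 (SE 0.39, 95% confidence interval from -0.07 to 1.97, adjusted p = 0.327 by limma) was not called. Leaving out Sox4-MKO mouse 1 gave 0.43, and leaving out mouse 2 gave 1.47, where Lyve1 was called. Lyve1 was also called when all libraries were set to a common median (0.93), and when they were rescaled without mitochondrially encoded genes and Ucp1 (1.01). Of 6 lymphatic endothelial markers, 3 were tested and 1, Pdpn, was called higher, whereas the most abundant, Ccl21a, was not (log2 fold change 0.16). The third tested marker, Flt4, was not called and lay lower without overlap, with 2.32 and 2.62 FPKM in Sox4f/f and 1.62 and 2.21 FPKM in Sox4-MKO (-0.26). The lymphatic factor Prox1 was under the limit, at 0.0343 and 0.0579 FPKM in Sox4f/f BAT, against 0.60 and 0.173 FPKM in Sox4-MKO, also highest in mouse 1. The summed level of the 6 lymphatic markers was 5.87 and 7.49 FPKM in Sox4f/f BAT, against 9.19 and 8.37 FPKM in Sox4-MKO, and their part in the Lyve1 difference was not tested.

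Among the general genes, Cd68, a lysosomal glycoprotein of phagocytes on chromosome 11 from 69664213 to 69666153, had 6.001 and 10.7 FPKM in Sox4f/f BAT, against 17.6 and 13.6 FPKM in Sox4-MKO. The groups did not overlap, and Sox4f/f mouse 1 was the lowest. It was called, with a log2 fold change of 0.86 (SE 0.30, adjusted p = 0.279 by limma). The call was lost without Sox4f/f mouse 1, where the log2 fold change was 0.49, and without either Sox4-MKO mouse (0.69 with mouse 1 left out and 1.04 with mouse 2 left out).
Csf1r, the receptor for the survival factors CSF1 and IL34, lies on chromosome 18 from 61100598 to 61132149. It had 8.29 and 14.5 FPKM in Sox4f/f BAT, against 20.9 and 16.7 FPKM in Sox4-MKO. Sox4f/f mouse 2 was nearer to Sox4-MKO mouse 2 than to the other Sox4f/f mouse. Its log2 fold change of 0.72 (SE 0.29, adjusted p = 0.328 by limma) was not called, except without Sox4f/f mouse 2 (1.09) and in the rescaled data (0.78).
Adgre1, which encodes the F4/80 antigen and lies on chromosome 17 from 57358691 to 57483527, had 6.52 and 9.68 FPKM in Sox4f/f BAT, against 10.02 and 13.1 FPKM in Sox4-MKO. The nearest mice of the groups were almost level, and its log2 fold change of 0.48 (SE 0.24, 95% confidence interval from -0.17 to 1.12, adjusted p = 0.401 by limma) was the smallest of these 7 genes. For all 3 general genes Sox4f/f mouse 1 was the lowest of the 4 libraries.

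**Figure D2:**
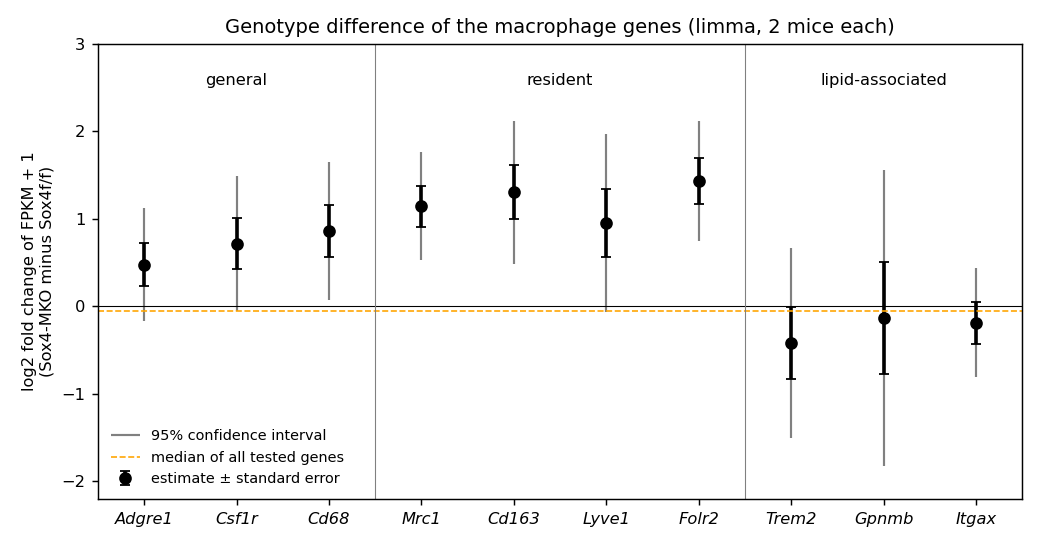
Log2 fold change of FPKM + 1 (Sox4-MKO minus Sox4f/f) for each member by limma, with the standard error (thick) and the 95% confidence interval (thin). The resident genes lie between 0.95 and 1.43, the general genes between 0.48 and 0.86 and the lipid-associated genes between -0.41 and -0.13, with intervals of the last group that all include 0.

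Trem2 and Itgax did not exceed 2.84 FPKM in any library, whereas Gpnmb reached 6.68 FPKM in Sox4f/f mouse 2. Trem2 and Gpnmb varied more between mice of a genotype than between the genotypes. Trem2, which encodes the lipid receptor of this program and lies on chromosome 17 from 48346401 to 48354147, had 0.965 and 2.84 FPKM in Sox4f/f BAT, against 0.754 and 1.42 FPKM in Sox4-MKO, from an estimated 11 to 38 fragments. Mouse 2 was the higher one in each genotype and the groups overlapped. The log2 fold change was -0.41 (SE 0.41, 95% confidence interval from -1.50 to 0.67, adjusted p = 0.64 by limma).
Gpnmb encodes a glycoprotein of lysosomes and lipid-laden macrophages and lies on chromosome 6 from 49036546 to 49070929. It had 1.29 and 6.68 FPKM in Sox4f/f BAT, against 2.02 and 3.86 FPKM in Sox4-MKO, again with mouse 2 above mouse 1 in each genotype. Both Sox4-MKO values lay between the Sox4f/f values. Its log2 fold change of -0.13 had a wide 95% confidence interval from -1.82 to 1.56 (adjusted p = 0.932 by limma), and was 0.74 without Sox4f/f mouse 2 and -1.004 without Sox4f/f mouse 1.
Itgax encodes CD11c, an integrin of lipid-associated macrophages and dendritic cells, and lies on chromosome 7 from 128129547 to 128150657. It had 1.11 and 0.930 FPKM in Sox4f/f BAT, against 0.731 and 0.810 FPKM in Sox4-MKO, from an estimated 39 to 62 fragments. It was the only member of which both Sox4-MKO values lay below both Sox4f/f values, with a log2 fold change of -0.19 (SE 0.24, 95% confidence interval from -0.81 to 0.44, adjusted p = 0.715 by limma). With a pseudocount of 0.01 in place of 1, the log2 fold changes were -0.67 for Trem2, -0.08 for Gpnmb and -0.39 for Itgax.
Gpnmb and Itgax are also carried by other cell types. Of 5 melanocyte markers, which share Gpnmb, 0 passed the FPKM limit, their summed level was 0.396 and 0.168 FPKM in Sox4f/f BAT, against 0.662 and 0.432 FPKM in Sox4-MKO, and Tyr and Tyrp1 were listed at 0 in all 4 libraries. Of 8 dendritic cell markers, which share Itgax, 2 were tested and 1 was called lower, namely Zbtb46 (log2 fold change -0.55), which is also an endothelial gene. The other tested marker, the lectin gene Cd209a, was not called and lay higher without overlap, with 1.19 and 1.69 FPKM in Sox4f/f and 4.46 and 2.12 FPKM in Sox4-MKO (0.77). The dendritic cell growth factor receptor gene Flt3 was at 0.0957 to 0.169 FPKM. The 8 genes summed to 12.5 and 13.9 FPKM in Sox4f/f BAT, against 12.7 and 11.9 FPKM in Sox4-MKO. The 7 genes other than Zbtb46 summed to 2.99 and 3.23 FPKM in Sox4f/f and to 6.63 and 4.85 FPKM in Sox4-MKO, so their sum was higher in both Sox4-MKO mice. Their part in the Itgax values was not tested.

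The promoters of the 3 lipid-associated genes are shown because each holds the motif TGANTCA, the core recognised by AP-1 factors, which is the same on both strands. The windows run from 250 bases before to 50 bases after the RefSeq start on GRCm38.p6, 5′ to 3′ on the strand of the gene, and 7 of the 10 members had at least 1 window. Across all 32851 windows TGANTCA is present in 7.81%. It was found in 5 of 8 member windows, namely those of Trem2, Gpnmb, Itgax and Cd68 and 1 of 2 of Folr2, and not in those of Mrc1 and Cd163. GAGGAA, the core of PU.1 sites, searched on both strands, is present in 28.3% of windows and was found in 3 of 8 member windows, those of Mrc1, Cd68 and Trem2. CACGTG, the E-box of the MiT/TFE factors, was found in 0 of 8, against 7.15% of all windows. Mrc1 is shown for comparison, with 3 copies of GAGGAA that all read TTCCTC on the printed strand. Capitals mark TGANTCA and GAGGAA, the latter also as TTCCTC, and a match is a description of the letters and not a binding site. The motif starts 9 bases before the RefSeq start in Trem2, 56 bases before it in Itgax and 8 bases past it in Gpnmb. The bases just after the RefSeq start were found in a GENCODE transcript for Trem2, Itgax and Mrc1, but not for Gpnmb. The GENCODE start of Gpnmb, at 49036546, lies downstream of both its RefSeq start and its motif. The windows lie at chr17:48346151-48346450 (Trem2), chr6:49036268-49036567 (Gpnmb), chr7:128129300-128129599 (Itgax) and chr2:14229164-14229463 (Mrc1), all on the plus strand.
Trem2: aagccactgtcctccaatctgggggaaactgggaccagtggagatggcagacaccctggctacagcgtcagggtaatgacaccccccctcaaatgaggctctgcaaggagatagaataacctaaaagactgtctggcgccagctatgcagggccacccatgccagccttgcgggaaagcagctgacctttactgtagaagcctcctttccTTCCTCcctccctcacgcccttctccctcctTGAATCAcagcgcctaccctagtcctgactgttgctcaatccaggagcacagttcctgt
Gpnmb: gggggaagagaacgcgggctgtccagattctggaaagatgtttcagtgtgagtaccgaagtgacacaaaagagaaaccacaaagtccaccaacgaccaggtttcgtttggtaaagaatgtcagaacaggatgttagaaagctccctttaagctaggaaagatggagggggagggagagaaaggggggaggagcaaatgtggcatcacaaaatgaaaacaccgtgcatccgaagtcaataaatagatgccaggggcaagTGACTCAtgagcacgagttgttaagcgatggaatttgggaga
Itgax: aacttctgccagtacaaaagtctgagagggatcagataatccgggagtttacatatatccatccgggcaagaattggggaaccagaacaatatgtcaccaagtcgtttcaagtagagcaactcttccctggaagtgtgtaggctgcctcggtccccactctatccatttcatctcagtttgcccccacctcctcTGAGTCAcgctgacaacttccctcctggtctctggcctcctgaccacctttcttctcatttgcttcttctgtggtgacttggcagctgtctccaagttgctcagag
Mrc1: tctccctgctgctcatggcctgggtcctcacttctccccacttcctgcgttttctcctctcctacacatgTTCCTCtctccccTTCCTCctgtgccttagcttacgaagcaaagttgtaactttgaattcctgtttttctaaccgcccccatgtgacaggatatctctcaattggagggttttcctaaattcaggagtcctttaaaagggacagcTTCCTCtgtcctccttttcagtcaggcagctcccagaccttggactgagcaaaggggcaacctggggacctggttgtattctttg

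The groups were then compared within each library. The value used was the mean log2(FPKM + 1) of the lipid-associated genes minus that of the resident genes. This value cancels the scaling of a library only in part, since 1 is added to each FPKM. It was -1.44 and -0.78 in Sox4f/f against -3.10 and -2.02 in Sox4-MKO, so that the resident genes exceeded the lipid-associated genes by more in both Sox4-MKO mice. The mean was -1.11 ± 0.47 in Sox4f/f and -2.56 ± 0.77 in Sox4-MKO (SD, n = 2 mice each). The difference between the genotypes was -1.45, against a spread between mice of 0.637 (pooled SD), and leaving out Sox4-MKO mouse 1 or 2 gave -0.91 or -2.00. These values carry no test, since the members were chosen with earlier results known.
Against the general genes, the lipid-associated genes lay at -1.90 and -1.70 in Sox4f/f and at -2.98 and -2.47 in Sox4-MKO. The resident genes lay at -0.46 and -0.92 in Sox4f/f and at 0.12 and -0.46 in Sox4-MKO, where Sox4-MKO mouse 2 was level with Sox4f/f mouse 1. As ratios of FPKM, Folr2 exceeded Trem2 6.63 and 2.28 times in Sox4f/f and 32.4 and 10.4 times in Sox4-MKO, and Trem2 amounted to 0.161 and 0.265 of Cd68 in Sox4f/f and to 0.0428 and 0.105 of it in Sox4-MKO.

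**Figure D3:**
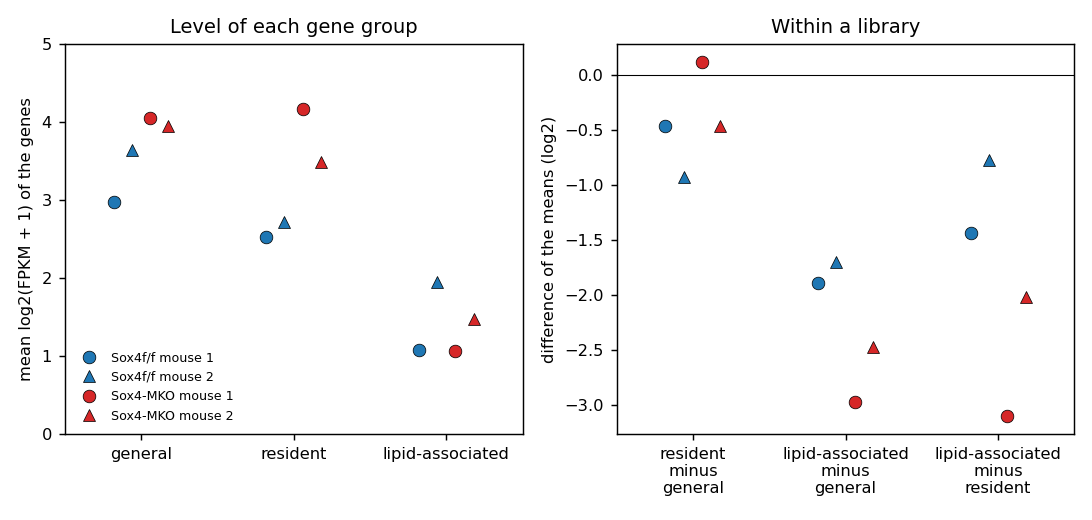
Left, mean log2(FPKM + 1) of the general, resident and lipid-associated genes in each library (blue, Sox4f/f; red, Sox4-MKO; circles, mouse 1; triangles, mouse 2). Right, differences between the group means within a library, where lipid-associated minus resident lies at -1.44 and -0.78 in Sox4f/f and at -3.10 and -2.02 in Sox4-MKO.

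Further macrophage genes were read from lists of known markers, which were chosen with earlier results of these data known. Their likeness to the members is therefore no independent support. Of 17 further resident genes, 16 were tested, 11 were called higher and 0 lower, and 14 did not overlap upward. Over all tested genes, 7.95% were called higher and 21.7% did not overlap upward. The median log2 fold change of the list was 1.11, close to the 1.23 of the 4 members. Cd209b, Timd4 and Clec4n entered the test only through their Sox4-MKO libraries, so the limit itself favoured a higher value in Sox4-MKO. Of these, Cd209b is among the genes called, and Cd209b and Timd4 are among those without overlap. The chemokine gene Ccl8 had 15.4 and 14.2 FPKM in Sox4f/f BAT, against 82.3 and 43.3 FPKM in Sox4-MKO (log2 fold change 1.94, SE 0.32). F13a1, which encodes the A subunit of coagulation factor XIII, had 5.11 and 6.005 FPKM against 22.5 and 15.6 FPKM (1.60, SE 0.22). The C-type lectin genes Clec10a and Mgl2 had log2 fold changes of 1.25 and 1.13. Timd4, a marker of self-renewing resident macrophages, was not called, at 0.487 and 0.444 FPKM against 1.78 and 0.586 FPKM, with only Sox4-MKO mouse 1 apart. Selenop, the most abundant of this list and also an adipose gene, was not called (log2 fold change 0.21). The adjusted p-values of the 4 called genes with the smallest p were 0.196 by limma. The calls in this list numbered 10 without Sox4-MKO mouse 1, 6 without Sox4f/f mouse 1 and 5 without Sox4f/f mouse 2.

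Of 20 further lipid-associated genes, 19 were tested, 9 were called higher and 2 lower, and the median was 0.33. The shares over all tested genes were 7.95% called higher and 8.28% called lower. Many of the 20 listed genes are also expressed outside macrophages. Fabp5, a fatty acid binding protein gene, had 59.7 and 84.4 FPKM in Sox4f/f BAT, against 193 and 151 FPKM in Sox4-MKO (log2 fold change 1.26). Ctsk, which encodes a collagen-cleaving cathepsin also found in fibroblasts, had 4.15 and 4.50 FPKM against 9.83 and 9.73 FPKM (1.02), and the tetraspanin genes Cd63 and Cd9 had log2 fold changes of 0.66 and 0.62. The genes called lower were Apoe, which encodes a lipid carrier that binds TREM2, with 2177 and 2155 FPKM against 1345 and 1414 FPKM (-0.65), and Lipa, the lysosomal acid lipase gene (-0.43). Chosen after their values were seen, Mmp12 and Atp6v0d2 varied as Trem2 and Gpnmb did, whereas Capg, Lgals3 and Spp1 lay higher without overlap. Capg and Lgals3 were called higher (log2 fold changes of 0.82 and 0.67). Spp1 was not called (0.57), at 0.237 and 0.441 FPKM in Sox4f/f BAT, against 1.345 and 0.675 FPKM in Sox4-MKO. Spp1 entered the test only through its Sox4-MKO libraries. The macrophage elastase gene Mmp12 had 0.889 and 2.63 FPKM in Sox4f/f BAT, against 0.785 and 2.82 FPKM in Sox4-MKO, and the proton pump subunit gene Atp6v0d2 had 0.306 and 1.63 FPKM against 0.243 and 0.863 FPKM, with mouse 2 the higher one in each genotype. The calls upward numbered 4 without either Sox4f/f mouse 1 or mouse 2.

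**Figure D4:**
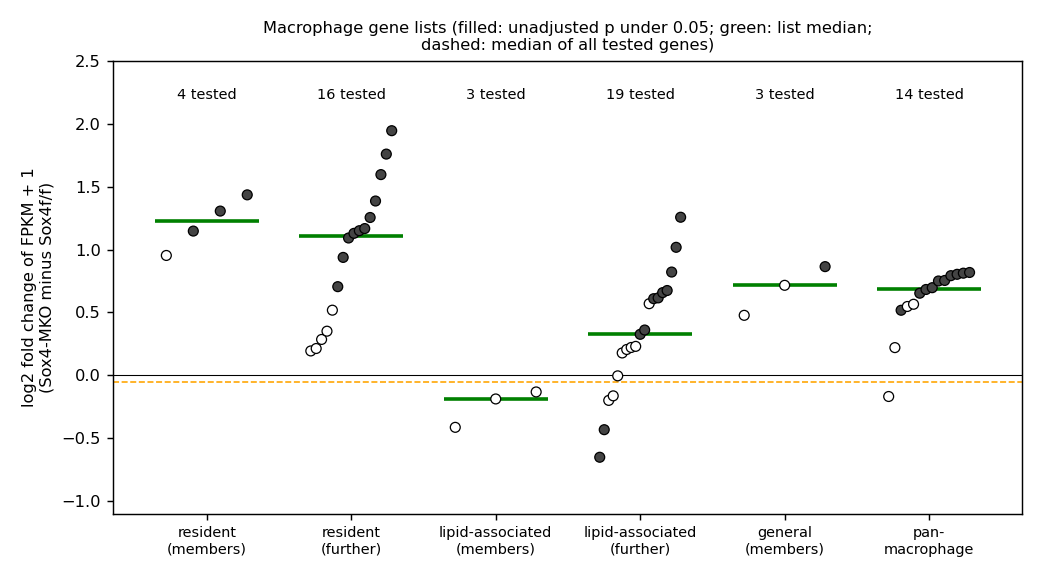
Log2 fold change of FPKM + 1 (Sox4-MKO minus Sox4f/f) of every tested gene in 6 lists, with 1 point per gene (filled, unadjusted p under 0.05 by limma), the list median in green and the median of all tested genes as a dashed line. The further resident genes have a median of 1.11, the further lipid-associated genes of 0.33 and the pan-macrophage genes of 0.69. Some genes in these lists passed the FPKM limit through 1 genotype only.

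Of 15 pan-macrophage genes, 14 were tested, 10 were called higher and 0 lower, with a median of 0.69, where 7.95% of all tested genes were called higher. Fcgr1, which is among the genes called, and Msr1, which is not, entered the test only through their Sox4-MKO libraries. The adaptor gene Tyrobp, through which TREM2 signals, had 19.1 and 21.8 FPKM in Sox4f/f BAT, against 40.2 and 33.4 FPKM in Sox4-MKO (log2 fold change 0.82). The complement genes C1qa and C1qb and the endotoxin co-receptor gene Cd14 had log2 fold changes of 0.81, 0.70 and 0.65. The lysozyme gene Lyz2, the most abundant of the list, had 0.68. Ctss, Msr1, Mpeg1 and Mertk were not called, with log2 fold changes of 0.57, 0.55, 0.22 and -0.17. Cx3cr1 was under the limit, at 0.390 and 0.350 FPKM in Sox4f/f BAT, against 0.356 and 0.252 FPKM in Sox4-MKO. The calls numbered 3 without Sox4-MKO mouse 1, 4 without Sox4f/f mouse 1 and 5 without Sox4-MKO mouse 2. Of 8 genes around TREM2 signalling, 7 were tested and Tyrobp and the kinase gene Syk (0.57) were called higher and the ligand gene Apoe lower. Of 7 genes around CSF1R, including its ligands and related cytokine receptors, 5 were tested and 2 were called higher. These were the ligand gene Csf1, with 3.69 and 3.11 FPKM in Sox4f/f BAT, against 7.32 and 5.06 FPKM in Sox4-MKO (0.69), and Csf2ra (0.78), a subunit of the receptor for GM-CSF. The second ligand gene, Il34, had 5.11 and 3.99 FPKM against 5.97 and 9.54 FPKM and was not called (0.63).
Of 5 genes of related integrins and their ligand Icam1, 4 were tested and Itgam, which encodes CD11b, was called higher (0.87), whereas its partner Itgb2 was not (0.45). Of the 4 MiT/TFE factors, which control lysosomal genes, 3 were tested and Tfe3 was called lower (-0.38). Single calls in such short lists stand beside the 7.95% of all tested genes called higher and the 8.28% called lower. Of 7 ligands and relatives of the resident receptors, 6 were tested. The most abundant, the haptoglobin gene Hp, was not called (0.27). Mrc2, a relative of Mrc1, was called higher (0.49), and Slc40a1, which encodes the iron exporter ferroportin, was called lower, from 14.8 and 15.1 FPKM to 4.68 and 6.36 FPKM (-1.30, SE 0.18, adjusted p = 0.196 by limma).

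Some genes of other leukocytes and of muscle were also called, where 7.95% of all tested genes were called higher. Their part in the macrophage gene differences was not tested. The pan-leukocyte gene Ptprc was called higher (log2 fold change 0.61), and the lymphocyte and myeloid gene Cd52, the most abundant leukocyte marker, was not (0.64). Of 7 monocyte genes, 5 were tested and 3 were called higher, namely Ccr2, with 2.49 and 2.29 FPKM in Sox4f/f BAT, against 5.56 and 9.48 FPKM in Sox4-MKO (1.29), Plac8 (1.61) and Ace (1.01), of which the last is also an endothelial gene. Nr4a1, the most abundant of them, was not called (0.37). The monocyte genes summed to 27.3 and 50.3 FPKM in Sox4f/f and 55.6 and 73.2 FPKM in Sox4-MKO. Nr4a1 alone made up 10.3 and 35.7 FPKM of these sums in Sox4f/f and 18.7 and 33.8 FPKM in Sox4-MKO. Of 6 neutrophil genes, 3 were tested and S100a9 was called higher (0.95), and the sum was 2.55 and 2.93 FPKM against 5.32 and 11.1 FPKM, with Mpo and Ly6g listed at 0 in all 4 libraries. Of 8 T and NK cell genes, 4 were tested and Trac was called higher (1.02), with sums of 12.1 and 9.30 FPKM against 11.6 and 19.6 FPKM. Cd3e, Cd3g and Nkg7 overlapped and were not called (0.36, -0.05 and 0.20). Under the limit, averaged FPKM in Sox4-MKO was 0.78, 0.89 and 0.53 times that in Sox4f/f for Cd3d, Cd4 and Ncr1, and 1.08 times for Cd8a. Of 5 B cell genes, 0 passed the limit.
Of the 6 skeletal muscle genes, 5 were called higher, with log2 fold changes of 4.10 for Acta1 and 4.21 for Myh1. Their mean log2(FPKM + 1) was 4.47 and 6.24 in Sox4f/f and 10.6 and 7.87 in Sox4-MKO, and that of the resident members was 2.52 and 2.72 against 4.17 and 3.49, so that the 4 libraries had the same order in both. The general members, at 2.98 and 3.64 against 4.05 and 3.945, had this order too. So did the further resident genes, at 2.65 and 2.82 against 3.91 and 3.435. The lipid-associated members, at 1.08 and 1.94 against 1.07 and 1.47, did not have it. Without Sox4-MKO mouse 1, which held the most muscle RNA, 3 of 4 resident members were called, with log2 fold changes from 0.88 to 1.09, and Lyve1 was not (0.43). The part of muscle tissue in the resident and general gene differences was not tested.

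**Figure D5:**
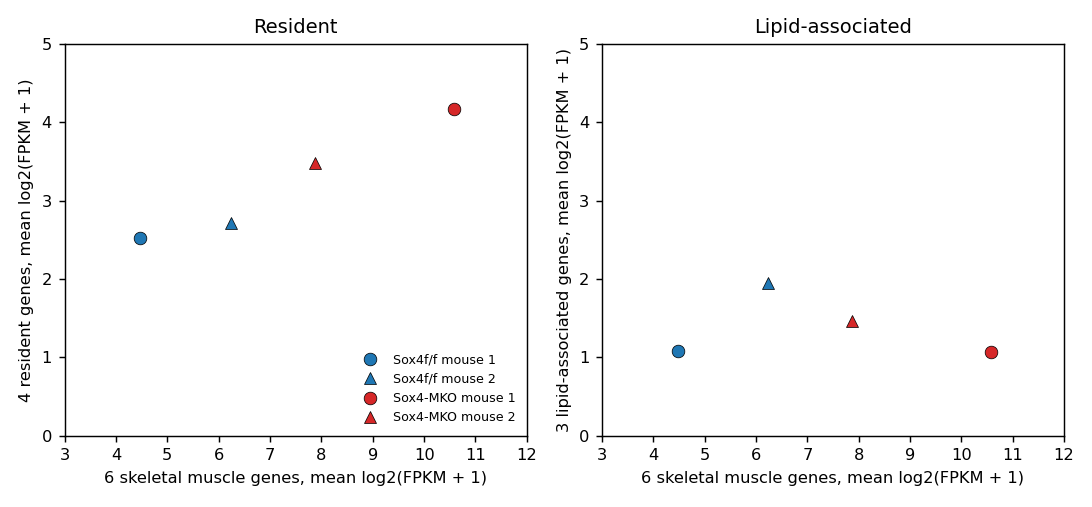
Mean log2(FPKM + 1) of the 4 resident (left) and 3 lipid-associated genes (right) against that of 6 skeletal muscle genes, with 1 point per library. The resident level and the muscle level are both lowest in Sox4f/f mouse 1 (2.52 and 4.47) and highest in Sox4-MKO mouse 1 (4.17 and 10.6), whereas the lipid-associated level is highest in Sox4f/f mouse 2 (1.94). The general members, not plotted, had the same order of libraries as the resident members.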

How the data were processed

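BAT of 2 Sox4f/f and 2 Sox4-MKO mice was sequenced as mRNA libraries. The authors deposited 1 FPKM value per gene symbol and library. The submitters' processing notes name Cufflinks 2.1.1, Cuffdiff and mm10, and the aligner and annotation are not given in the sources used here. The values are not counts, so limma 3.58.1 (R 4.3.3) was applied to log2(FPKM + 1), with a genotype term alone, a trended prior and two-sided p-values, for the 12877 genes whose mean FPKM exceeded 1 in either genotype. The code was tested on simulated data. The members and lists were chosen with earlier results of these data known. List genes were named when called without overlap, at most 4 per list and direction in order of p, or when most abundant in their list. Other named genes, such as Timd4, Il34, Itgb2 and Prox1, were picked with their values in view.

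Positions and transcript lengths are from GENCODE M21 (GRCm38), matched by symbol for 53288 of 55287 symbols. Depth was estimated from the lowest FPKM × kb cluster of 6743 single-transcript genes of at least 1500 nt, so fragment numbers are approximate and based on the longest coding transcript. Promoters are from RefSeq (GRCm38.p6). The libraries are separate littermate mice by the study's methods, and p-values measure the spread between these 4 libraries. Alternatives were a replicate block, each library left out, other scalings, FPKM limits, pseudocounts, no moderation and a 1.5-fold limit. Figures were drawn with matplotlib 3.10.9.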

Additional observations from a re-analysis of the deposited data

How the results depend on the processing

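The 4 resident and 3 general members kept a positive log2 fold change under all 14 alternative fits, and 0 lipid-associated members were called in any of them. Without moderation of the variances, 0 resident and 0 general members were called. This fit called 3 further resident, 3 further lipid-associated and 3 pan-macrophage genes higher. Over the whole table it called 553 genes higher and 935 lower, against 1024 and 1066 in the main fit. Rescaling without mitochondrially encoded genes and Ucp1 called 2 general members. A fold change of at least 1.5 left 874 higher and 399 lower genes over the whole table. With each library left out in turn, the members called numbered 2 to 4 of the resident and 0 to 2 of the general genes. The further resident genes called higher then numbered 5 to 12, the further lipid-associated genes 4 to 7 and the pan-macrophage genes 3 to 7. Among all tested genes, from 445 to 1559 were then called higher and from 404 to 1012 lower. The log2 fold change ranged from -0.90 to 0.070 for Trem2, from -1.004 to 0.74 for Gpnmb and from -0.32 to 0.71 for Sox4, so the direction of these 3 genes depends on single libraries. The lipid-associated minus resident difference lay between -2.00 and -0.91 over all its alternatives. Where a fit left 1 mouse in a genotype, that mouse was taken to vary like the others. Itgax fell under the FPKM limit without Sox4f/f mouse 1, after the rescaling and with a limit of 5, and Trem2 and Gpnmb with a limit of 5. The mice share only a number (correlation of their deviations -0.012 over 12877 genes), and with it as a replicate block 3 resident members and 1 general member were called, the general one being Adgre1 in place of Cd68. The cause of these shifts was not tested. Fragment numbers limit Trem2 and Itgax most.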
